A study of Mus musculus with 16 samples.

Results

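The 9 genes described here encode the pore-forming subunits of the AMPA and kainate receptors: Gria1, Gria2, Gria3 and Gria4 for AMPA receptors, and Grik1, Grik2, Grik3, Grik4 and Grik5 for kainate receptors. They were chosen by family membership, by symbol, and all 9 were found among the 20436 genes that the tables of all 16 libraries list. The study compared the cerebral cortex between mice of 4 genotypes, aged 28 to 35 days: wild type (WT), knockout of Fmr1, knockout of Cpeb1, and knockout of both genes (double knockout). Fmr1 encodes FMRP, the RNA-binding protein lost in fragile X syndrome, and Cpeb1 encodes an RNA-binding protein that acts on the poly(A) tails and translation of mRNAs. The strain background is labelled FVB.129P2-/Pde6b+ Tyr c-ch //AntJ for every group. Cytoplasmic lysate was divided between ribosome profiling, which sequences the mRNA fragments that ribosomes protect from RNase (footprints), and RNA-seq of rRNA-depleted RNA, with 2 libraries per genotype and assay. Lysis buffer contained the translation inhibitors cycloheximide and harringtonine in all groups.

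Both receptor families are tetrameric cation channels opened by glutamate. AMPA receptors carry most fast excitatory transmission in the cortex. GluA2, the product of Gria2, makes AMPA receptors nearly impermeable to calcium once its transcript has been edited in the pore-forming segment, and it usually pairs with GluA1 or GluA3. Among the kainate receptors, the products of Grik1, Grik2 and Grik3 can form channels on their own, whereas the products of Grik4 and Grik5 bind kainate with high affinity and need a partner from the other group. Auxiliary proteins set the trafficking and kinetics of both families, among them the TARP proteins of the Cacng genes for AMPA receptors and Neto1 and Neto2 for kainate receptors.

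RNA-seq libraries held 5423925 to 10246482 estimated counts and footprint libraries 16239703 to 24973757. In RNA-seq the targeted genes fitted the labels: Fmr1 averaged 100 ± 12.4 CPM (counts scaled to library size; SD, n = 2) in WT but 22.1 ± 5.30 where it was knocked out alone, and Cpeb1 38.7 ± 7.33 in WT but 17.8 ± 2.63 where it was. Both were as low in the double knockout, at 23.3 ± 2.61 and 17.3 ± 1.73 CPM. The labels do not say that libraries of a genotype came from separate animals, so p-values measure only the spread between these samples. In whole cortex, fewer cells of a type and less RNA per cell cannot be told apart. Called means a Benjamini-Hochberg adjusted p under 0.05 in edgeR's quasi-likelihood test over all tested genes, and each share of called genes is given as background for the 9.

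The 3 genes whose RNA differed between the single knockouts and the other genotypes, described further on, were Grik5, Grik4 and Gria2. Grik5 (NCBI gene 14809) lies at chr7:25009849-25075694, Grik4 (110637) at chr9:42518182-42945000 and Gria2 (14800) at chr3:80681450-80804227, in the RefSeq annotation of GRCm38.p6. RefSeq promoter sequences were matched for 6 of the 9 genes. The 250 bases before the transcript start that the table gives are shown for these 3, because their RNA moved together or in opposition. For each, that start lies inside the annotated span of the gene, so other transcripts of the gene begin farther upstream. Capitals mark GGGCGG, the core of the SP1 site, searched on both strands. The windows are Grik5 at chr7:25072370-25072619, Grik4 at chr9:42944372-42944621 and Gria2 at chr3:80802836-80803085, all on the minus strand and written 5′ to 3′ along the gene.
Grik5: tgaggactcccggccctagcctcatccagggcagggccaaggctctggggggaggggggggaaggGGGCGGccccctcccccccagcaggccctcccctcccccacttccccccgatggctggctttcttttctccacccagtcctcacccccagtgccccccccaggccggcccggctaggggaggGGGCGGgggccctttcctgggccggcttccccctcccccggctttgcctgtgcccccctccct
Grik4: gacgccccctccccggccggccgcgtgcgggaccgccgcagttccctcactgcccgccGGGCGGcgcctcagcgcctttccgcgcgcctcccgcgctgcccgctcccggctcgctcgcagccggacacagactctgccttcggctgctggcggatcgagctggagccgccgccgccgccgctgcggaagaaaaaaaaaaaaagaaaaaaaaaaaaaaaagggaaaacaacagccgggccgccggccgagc
Gria2: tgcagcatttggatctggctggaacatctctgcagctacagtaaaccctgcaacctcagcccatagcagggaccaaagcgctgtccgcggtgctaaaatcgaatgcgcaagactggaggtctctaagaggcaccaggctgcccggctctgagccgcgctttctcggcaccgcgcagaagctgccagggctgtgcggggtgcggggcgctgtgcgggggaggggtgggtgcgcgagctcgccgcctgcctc
GGGCGG occurred 2 times before Grik5, 1 time before Grik4 and 0 times before Gria2, and 32.7% of the 32851 promoters in the table hold it. All 3 windows were rich in G and C, at 75.2%, 69.6% and 64.8%, beside a median of 52.4% over all promoters. Of the other matched genes, whose RNA was not called, Grik3 had 6 matches of GGGCGG, and Gria4 and Grik2 had 0. Their windows held 82%, 58.8% and 62.8% G and C. A match is a description of these letters and not of binding. TATAAA and TGACGTCA (the CRE), searched in the same way, did not occur in the 3 windows, and 12.4% and 1.55% of all promoters hold them.

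Gria2 was the most abundant subunit gene in cortical RNA. Its level per length, as the TPM values deposited by the authors, which scale counts by feature length and library, averaged 514 ± 47.7 (SD over the 8 RNA-seq libraries of all genotypes), with a lowest value of 418 and a highest of 570. Gria1 at 225 ± 8.97 TPM and Gria3 at 209 ± 13.5 followed, and their ranges overlapped. Grik5 at 131 ± 34.4 TPM and Gria4 at 126 ± 17.9 came next, in an order that depended on genotype. Grik5 had the widest spread of the 9 relative to its mean, from 79.6 to 174 TPM. It was above Gria4 in each library of WT (138 against 134 and 163 against 98.6 TPM) and of the double knockout (155 against 148 and 174 against 100.0 TPM). It was below Gria4 in each library of the Fmr1 knockout (85.8 against 127 and 127 against 141 TPM) and of the Cpeb1 knockout (79.6 against 129 and 124 against 135 TPM). Grik2 at 67.8 ± 7.59 and Grik3 at 47.6 ± 4.48 stood in the middle and did not overlap with each other. Grik1 at 13.3 ± 1.72 and Grik4 at 11.9 ± 2.12 were the least abundant, below the median of 31.2 TPM over all tested genes.

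In footprints the order changed mainly for Grik5 and Gria1. Gria2 again led, at 267 ± 23.4 TPM, but Gria3 at 120 ± 12.5 stood above Gria1 at 83.3 ± 6.63 with no overlap between the 2 genes. Gria4 averaged 46.4 ± 3.84 TPM. Grik5 stood with the other kainate subunits there: Grik5 at 20.1 ± 2.46, Grik3 at 18.9 ± 1.59 and Grik2 at 16.9 ± 1.60 TPM overlapped pairwise with their neighbours. Grik4 at 4.09 ± 0.369 and Grik1 at 2.76 ± 0.317 were lowest and did not overlap. In RNA these genes overlapped, with Grik1 above Grik4 in 6 of 8 libraries.

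**Figure D1:**
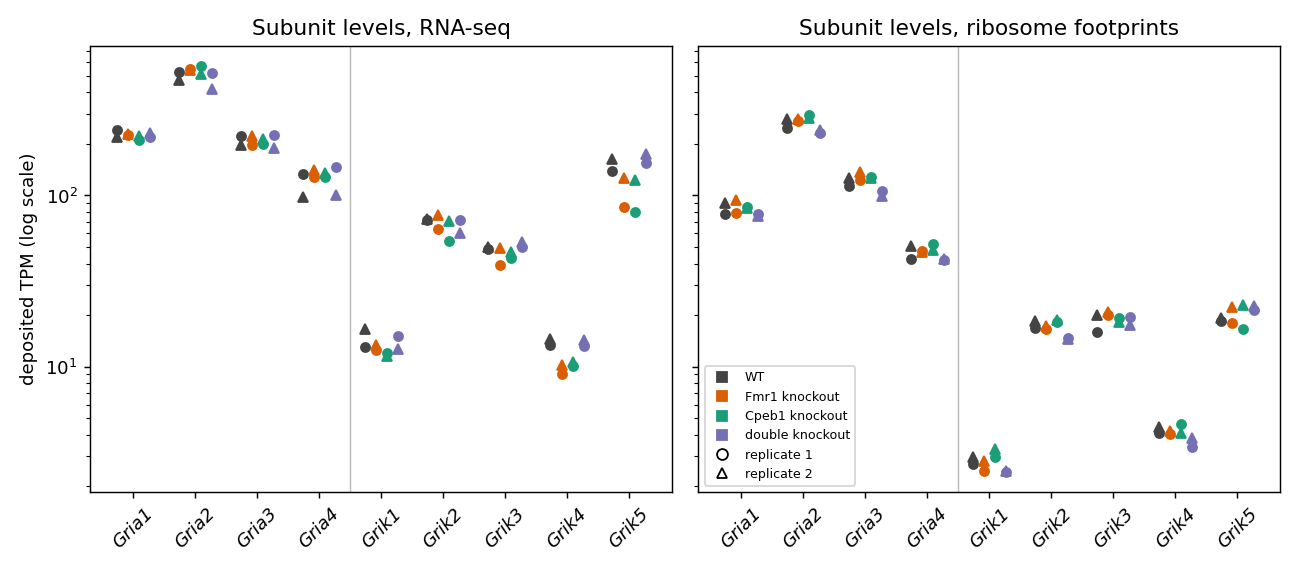
Deposited TPM on a log scale for each of the 9 genes, in RNA-seq (left) and ribosome footprints (right), with 1 point per library, coloured by genotype and shaped by replicate number. Gria2 is highest in both assays, and Grik5 lies above Gria4 in WT and double-knockout RNA and below it in single-knockout RNA, whereas its footprints lie near those of Grik3 and Grik2, near 20.1 TPM.

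Expressed as shares of the family's summed TPM, Gria2 made up 47.8% ± 2.02 of AMPA receptor RNA and 51.7% ± 0.892 of AMPA receptor footprints (SD over 8 libraries). Gria1 held 21.0% ± 1.72 of the RNA and 16.1% ± 0.705 of the footprints. For Gria3 the order was the opposite, with 19.5% ± 0.887 of the RNA and 23.2% ± 0.797 of the footprints. Neither gene's ranges overlapped between the assays. In the kainate family, Grik5 held 47.5% ± 5.25 of the RNA but 32.1% ± 3.42 of the footprints, again without overlap. Grik3 held 17.8% ± 1.83 of the kainate RNA and 30.1% ± 2.04 of the footprints. Grik2 differed little, at 25.4% ± 3.46 and 26.9% ± 2.25. Summed over the family, AMPA receptor genes exceeded kainate receptor genes 4.09 ± 0.918-fold in RNA and 8.23 ± 0.537-fold in footprints. The RNA ratio was 4.08 to 5.59 in the 4 single-knockout libraries and 2.98 to 3.96 in the 4 WT and double-knockout libraries, which did not overlap. Grik5 alone held 40.1% to 55.2% of the kainate RNA and also separated these groups, so the ratio in part restates Grik5. Taken singly, 12.2% of all genes had groups that did not overlap in RNA. In footprints the lowest ratios, 7.45 and 7.55, were those of the double knockout.

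**Figure D2:**
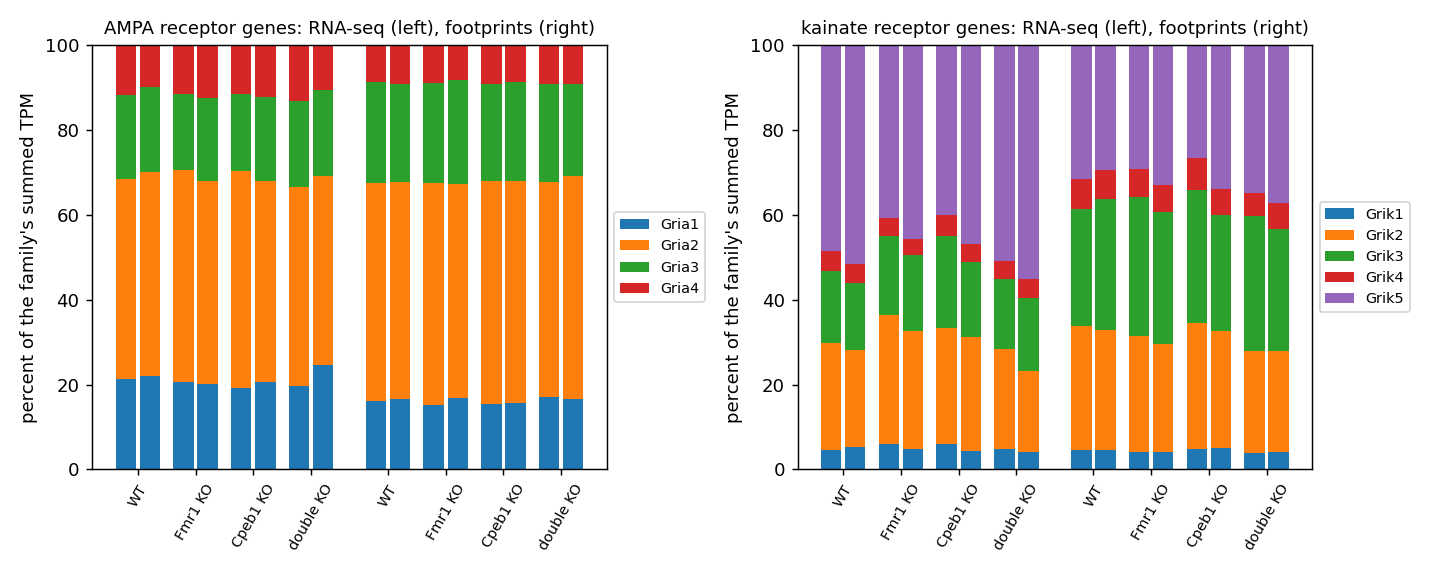
Percent of the summed TPM of the AMPA (left panel) and kainate (right panel) receptor genes held by each subunit gene, with 1 stacked bar per library (replicate 1, then 2), RNA-seq on the left of each panel and footprints on the right. Grik5 takes 40.1% to 55.2% of kainate RNA and 26.7% to 37.2% of kainate footprints.

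How many footprints each gene had for its RNA was tested within WT as the ratio of assays. All 9 genes had fewer footprints for their RNA than the typical gene, and 8 of 9 were called, beside 66.2% of all 13027 genes called in either direction and 32.7% called lower. Grik5 was the lowest, with a log2 ratio of -2.22 ± 0.128 (SE; edgeR adjusted p = 2.35e-09), which is a 4.66-fold lower footprint level and the 2.73th percentile of all genes. Grik1 followed at -1.73 ± 0.165 and Grik2 at -1.33 ± 0.129. The AMPA genes Gria4 at -1.0 ± 0.146 and Gria1 at -0.80 ± 0.109 lay near Grik4 at -0.96 ± 0.146 and Grik3 at -0.70 ± 0.135. Gria2, at -0.36 ± 0.0957 (edgeR adjusted p = 0.00419), was closest to the median of all genes among those called. Gria3, at -0.15 ± 0.108 (edgeR adjusted p = 0.225), was not called. Without WT replicate 1, Gria3 stood at 0.046, and Gria2 and Grik3 were no longer called. The log2 ratio is relative to the typical gene, so it orders genes and does not measure ribosomes per mRNA. With a trend on coding length taken out, Gria2 stood at 0.035 and Gria3 at 0.28, above 0, and Grik3 was not called. The 9 genes, with RNA feature lengths averaging 2026 to 2937 nt, are longer than the median tested gene, 1434 nt.

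**Figure D3:**
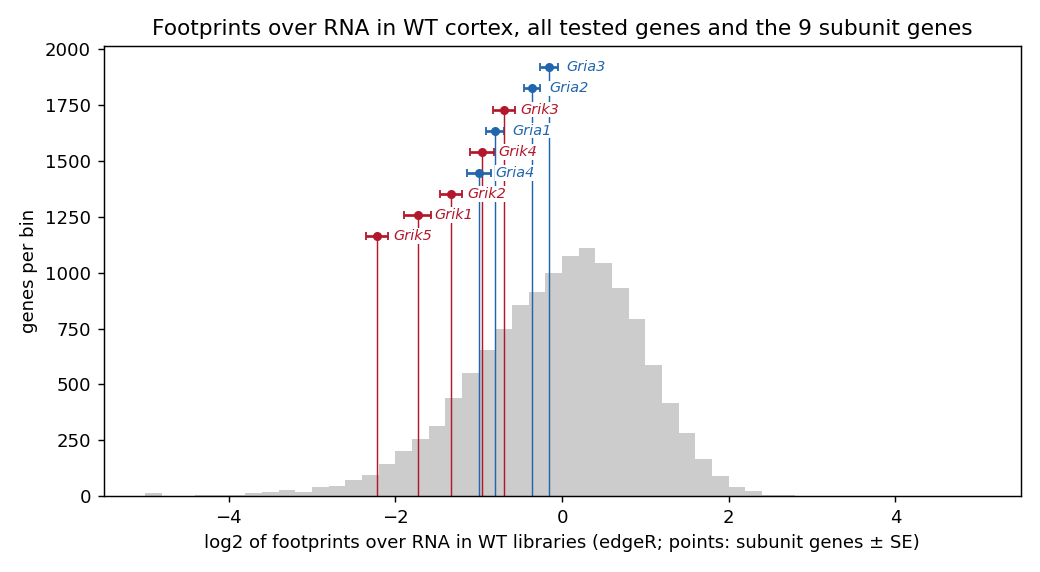
Histogram of the log2 ratio of footprints to RNA in WT over all 13027 tested genes (x axis in log2, y axis in genes per bin), with the 9 subunit genes marked as points with SE bars, AMPA in blue and kainate in red. All 9 lie below 0, from Gria3 at -0.15 to Grik5 at -2.22.

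Next, both single knockouts were set against WT together with the double knockout, 4 libraries against 4, a grouping that the authors also used for RNA. RNA of the kainate subunit genes Grik5 and Grik4 was lower in the single knockouts and RNA of Gria2 was higher. Thus 3 of 9 genes were called, beside a background of 7.31% of 13287 genes. Grik5 and Grik4 were 2 called lower, where 5.09% of all genes were, and Gria2 was 1 called higher, where 2.22% were. The median change of the 5 kainate genes was -0.15 on the log2 scale and that of the 4 AMPA genes 0.11, beside 0.03 over all genes tested.

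Grik5, the main high-affinity kainate subunit gene in these RNA libraries, had 278 and 328 CPM in the WT libraries and 303 and 356 CPM in the double knockout. It had 182 and 260 CPM in the Fmr1 knockout and 169 and 253 CPM in the Cpeb1 knockout. Every single-knockout library was thus below every WT and double-knockout library, and replicate 1 was below replicate 2 in all 4 genotypes. The fold was 1.48 lower in the single knockouts (log2 change -0.57 ± 0.0804, edgeR adjusted p = 0.00612), and the log2 difference was -0.72 within replicate 1 and -0.41 within replicate 2. This call held in all 15 fits tried, with log2 changes from -0.62 to -0.50. Grik5 shares its locus with Zfp574, a zinc-finger gene whose annotation overlaps it, and strand use in the counting is not given in the sources used here. Zfp574 RNA also fell, with a log2 change of -0.40 ± 0.104 (edgeR adjusted p = 0.0340), at 27.7 to 47.3 CPM.

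Grik4, the other high-affinity subunit gene, had 26.3 and 28.3 CPM in WT and 25.2 and 28.5 CPM in the double knockout. It had 18.9 and 20.6 CPM in the Fmr1 knockout and 20.9 and 21.4 CPM in the Cpeb1 knockout. The groups did not overlap, and Grik4 was 1.32-fold lower in the single knockouts (log2 change -0.40 ± 0.0969, edgeR adjusted p = 0.0244). The call was made in 9 of 15 fits, with log2 changes from -0.44 to -0.33. It was lost in the fit of 4 separate genotypes and without WT replicate 1, either Fmr1 knockout library, Cpeb1 knockout replicate 1 or double knockout replicate 1, with edgeR adjusted p up to 0.0981. Grik1, Grik2 and Grik3, the subunits that can form channels without those 2, had changes of -0.15 ± 0.111, -0.01 ± 0.0931 and -0.12 ± 0.0765, none of them called, with overlapping groups.

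Gria2 went the other way. It had 918 and 819 CPM in WT, 869 and 756 CPM in the double knockout, 1016 and 968 CPM in the Fmr1 knockout and 1055 and 920 CPM in the Cpeb1 knockout. The lowest single-knockout library, at 920 CPM, stood just above the highest of the other group, at 918 CPM. The log2 change was 0.24 ± 0.0662, a 1.18-fold higher level (edgeR adjusted p = 0.0429). Only 4 of 15 fits called it: the reported one, DESeq2, the one with a length trend removed and the one without WT replicate 2. The adjusted p ranged from 0.00723 to 0.163 over edgeR and DESeq2 fits. Gria1, Gria3 and Gria4, at 0.03 ± 0.0694, 0.06 ± 0.0713 and 0.16 ± 0.0963, were not called, and their groups overlapped. Groups that do not overlap were found for 12.2% of all genes in RNA and for 3.06% in footprints.

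**Figure D4:**
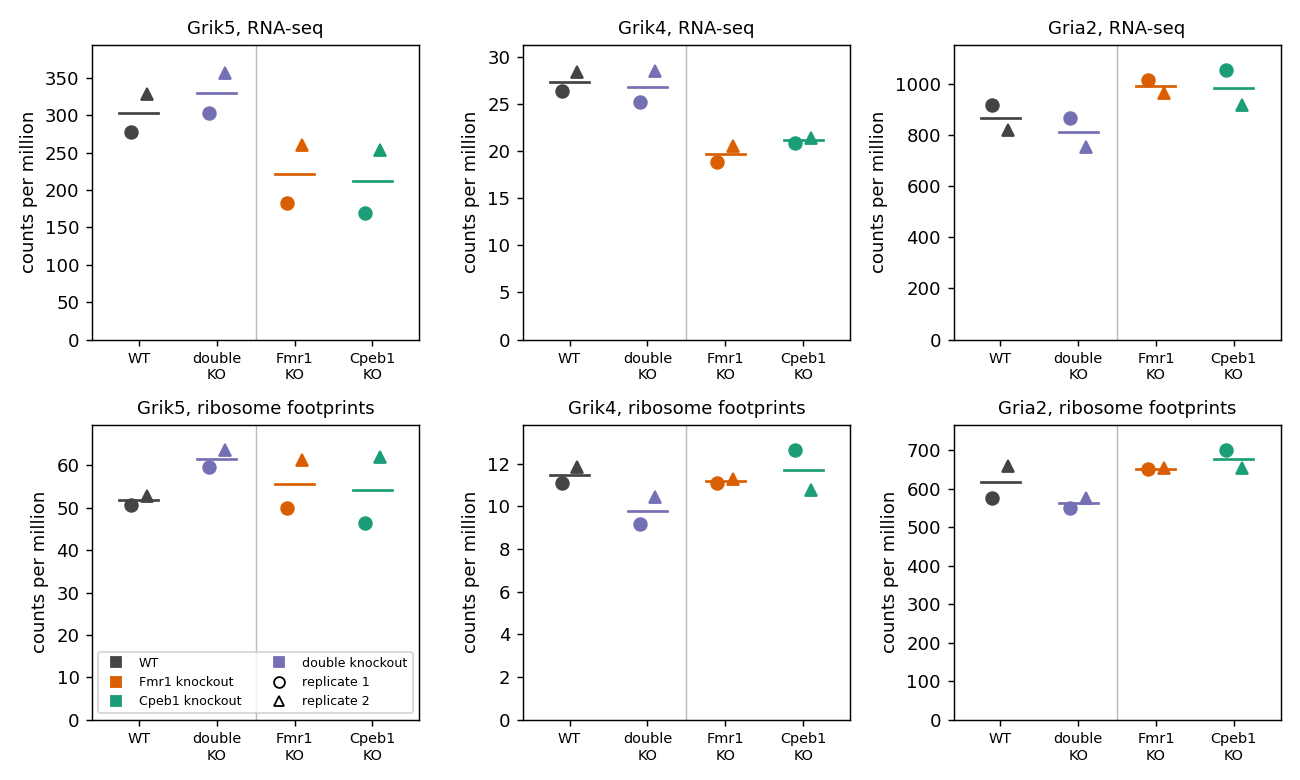
CPM of Grik5, Grik4 and Gria2 in each library, RNA-seq above and footprints below, with the genotype on the x axis, the shape giving the replicate number and the bar the mean of 2 libraries. In RNA, Grik5 lies at 169 to 260 CPM in the single knockouts and at 278 to 356 in WT and the double knockout, while in footprints the groups of all 3 genes overlap.

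The same contrast can be put as an interaction in a fit of 4 separate genotypes: the effect of Fmr1 loss when Cpeb1 is also lost, minus its effect when Cpeb1 is present. For Grik5 RNA this difference was 1.14 ± 0.172 on the log2 scale (edgeR adjusted p = 0.0385), which made 1 of 9 genes called, beside 2.06% of all genes. For Grik4 it was 0.81 ± 0.20 (edgeR adjusted p = 0.0583) and for Gria2 -0.47 ± 0.141 (edgeR adjusted p = 0.0896). In the authors' deposited table of the pooled RNA comparison the same 3 genes passed an adjusted p of 0.05, Grik5 with a log2 change of -0.47 and an adjusted p of 4.04e-08, Grik4 with -0.30 and 0.0111, and Gria2 with 0.18 and 0.00680 (DESeq2), among 1372 genes that passed in that table.

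Some marker genes differed between these groups too, in a comparison where 5.09% of all genes were called lower and 2.22% higher in RNA. The summed RNA level of 4 excitatory neuron markers (Slc17a7, Neurod6, Camk2a and Tbr1) was 2009.9 to 2355 CPM in the single knockouts and 2341 to 2965 CPM in the other libraries, ranges that overlapped slightly. Of these 4, 2 were called lower by edgeR, the median change was -0.32, and Neurod6 lay the other way at 0.23 in mean log2 CPM. The summed level of 5 astrocyte markers was 474 to 533 CPM in the single knockouts and 371 to 471 CPM in the other libraries, with 1 of 5 called higher. The astrocyte sums did not overlap between the groups, whereas the sums of the other lists (inhibitory neurons, oligodendrocytes and their precursors, microglia, endothelium, striatum, dentate gyrus, choroid plexus, cerebellar granule cells and blood) did. Of all genes taken singly, 12.2% did not overlap between the groups in RNA. Among the lists whose sums overlapped, 1 of 4 striatum markers was called lower, with a median change of -0.44, and 1 of 6 inhibitory neuron markers was called higher, with a median of 0.01. None of the 4 excitatory and 5 astrocyte markers was at 0. The part of cell composition in the changes of Grik5, Grik4 and Gria2 was not tested.

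None of these 3 genes was called in footprints. Grik5 had 50.7 and 52.8 CPM in WT, 59.6 and 63.5 in the double knockout, 50.0 and 61.3 in the Fmr1 knockout and 46.4 and 61.9 in the Cpeb1 knockout, so the groups overlapped. Its pooled footprint change was -0.05 ± 0.0900, that of Grik4 0.11 ± 0.106 and that of Gria2 0.17 ± 0.0617, the last in the same direction as in RNA. None of the 9 genes was called in footprints by edgeR, where 0% of 13774 genes were (957 had an unadjusted p under 0.05, and DESeq2 called 4). Of the 9, Gria2 and Gria3 had an unadjusted p under 0.05, and 8 of 9 had values above 0.

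Translational efficiency, which compares how footprints and RNA changed, was higher in the single knockouts for Grik5 by 0.55 ± 0.122 (edgeR adjusted p = 0.0726) and for Grik4 by 0.54 ± 0.137 (edgeR adjusted p = 0.116), neither of which was called. With 0 of 9 genes called, the background was 0.184% of 13027 genes. For Grik5, DESeq2 and the fit with no filter on low counts did make the call. Per library, log2 ratios of footprints to RNA were taken from CPM scaled within each assay. Their scale differs from that of the ratio tested within WT. For Grik5 they were -2.45 and -2.64 in WT and -2.35 and -2.49 in the double knockout. They were -1.86 and -2.08 in the Fmr1 knockout and -1.87 and -2.03 in the Cpeb1 knockout. The ratios of WT and the double knockout were all below those of the single knockouts. For Grik4 they were -1.24 and -1.26, -1.46 and -1.45, -0.77 and -0.86, and -0.73 and -0.99 in the same order of genotypes, and did not overlap either. RNA is the denominator of these ratios, and RNA of both genes already separated the groups, so the separation in part restates the RNA result. How many of all genes have ratios that separate in this way was not counted. The other 7 genes had pooled efficiency changes from -0.03 to 0.31, none called.

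**Figure D5:**
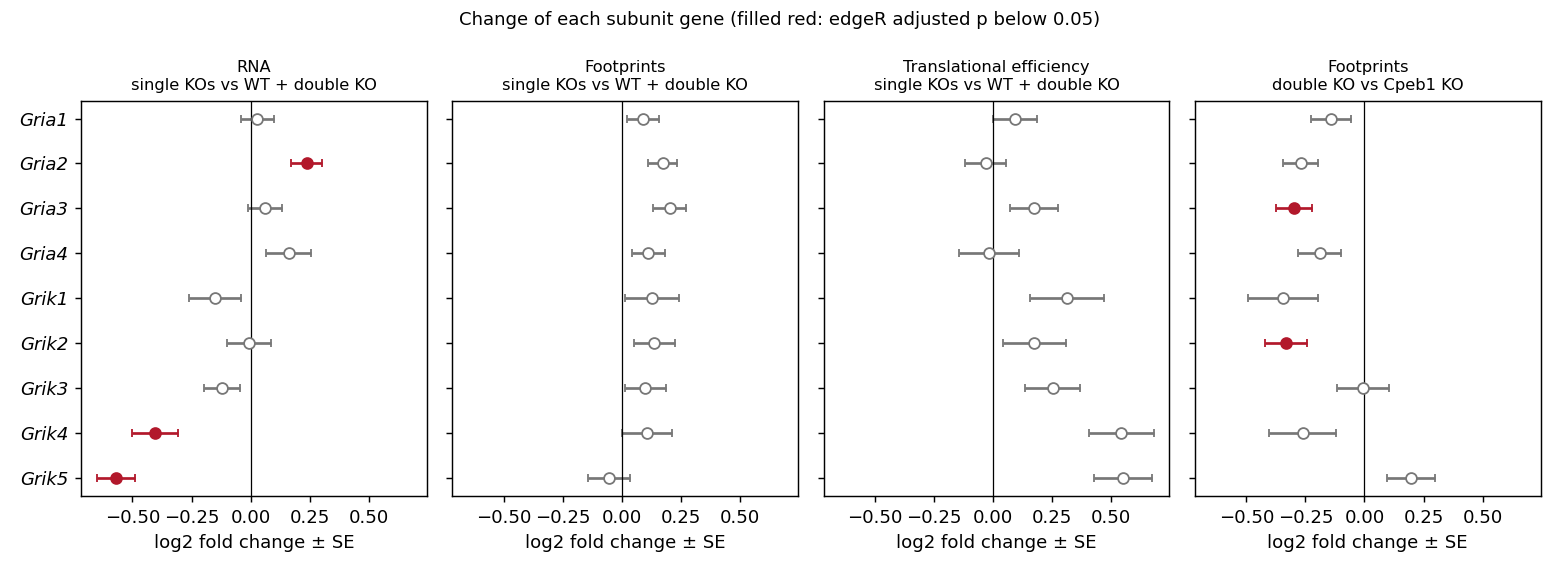
Log2 fold change ± SE of each of the 9 genes in 4 comparisons, from left to right RNA, footprints and translational efficiency of the single knockouts against WT plus double knockout, and footprints of the double against the Cpeb1 knockout. Filled red points are called by edgeR: Grik5, Grik4 and Gria2 in RNA, and Gria3 and Grik2 in the double knockout footprints.

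Pairs of genotypes, which share libraries with each other and with the pooled comparison, were also tested. In RNA no gene of the 9 was called in any of 6 pairs by edgeR. The background was as low: 0.00753% of genes for the Fmr1 knockout against WT, 0% for the Cpeb1 knockout against WT, 0.00753% for the double knockout against WT, 0% for it against the Fmr1 knockout, 0.00753% for it against the Cpeb1 knockout, and 0.00753% between the single knockouts. An unadjusted p under 0.05 was reached by 2, 2, 0, 3, 3 and 0 of the 9 genes in these pairs. Over all 13287 genes, 1075, 1455, 562, 2087, 2550 and 247 did so. The lowest adjusted p of edgeR was that of Grik5 in the double knockout against the Cpeb1 knockout, where its RNA was 0.66 ± 0.121 higher on the log2 scale (adjusted p = 0.0955). In the authors' deposited tables Grik5 was the only 1 of the 9 to pass in pairs for RNA: it was -0.35 in the Fmr1 knockout against WT (DESeq2 adjusted p = 0.0446) and -0.40 in the Cpeb1 knockout against WT (DESeq2 adjusted p = 0.00923). In the double knockout it was 0.45 against the Fmr1 knockout (DESeq2 adjusted p = 0.00256) and 0.49 against the Cpeb1 knockout (DESeq2 adjusted p = 0.000144) in those tables. Genes that passed in these tables numbered 50, 145, 202 and 459, in the order given. Grik1 and Grik4 had no adjusted p for the Fmr1 knockout against WT, so they could not pass there. The authors' deposited tables of translational efficiency also called Grik5, against WT with 0.52 for the Fmr1 knockout (adjusted p = 0.00104) and 0.54 for the Cpeb1 knockout (adjusted p = 0.00192), from the authors' Xtail fit. There 431 and 359 genes passed. In the authors' deposited table of efficiency in the double against the Fmr1 knockout, Grik5 passed with -0.42 (Xtail adjusted p = 0.0447), among 101 genes. Against the Cpeb1 knockout Grik5 efficiency in the double knockout was -0.43 and did not pass (Xtail adjusted p = 0.0781).

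In footprints the double knockout had the lowest summed level of the AMPA genes of the 4 genotypes, a description with no test. The summed TPM of the 4 AMPA genes was 458 and 459 in the double knockout and 482 and 549 in WT. It was 524 and 558 in the Fmr1 knockout and 562 and 545 in the Cpeb1 knockout. Against the Cpeb1 knockout, 2 of 9 genes were called by edgeR, both lower, beside a background of 5.6% of 13774 genes and 2.61% called lower. They were Gria3, an AMPA subunit gene, and Grik2, a kainate subunit gene whose product can form channels alone. Of the 9 values 8 were below 0, from -0.34 for Grik1 to 0.20 for Grik5, with a median of -0.26 beside -0.01 over all genes.

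Gria3 footprints were 265 and 253 CPM in the double knockout, 326 and 310 in the Cpeb1 knockout, 312 and 338 in the Fmr1 knockout, and 285 and 315 in WT. Both double-knockout libraries were below the other 6, a pattern whose share over all genes was not counted. The level was 1.23-fold lower than in the Cpeb1 knockout (log2 change -0.30 ± 0.0761, edgeR adjusted p = 0.0423), and 7 of 15 fits made the call. Grik2 footprints were 36.7 and 36.4 CPM in the double knockout, 46.6 and 45.5 in the Cpeb1 knockout, 42.1 and 42.9 in the Fmr1 knockout, and 42.1 and 45.7 in WT. Here too the double knockout was lowest, 1.26-fold below the Cpeb1 knockout (log2 change -0.33 ± 0.0878, edgeR adjusted p = 0.0468), with the call in 6 of 15 fits. Gria2 stood at -0.27 ± 0.0744 (edgeR adjusted p = 0.0521). Both calls were lost in the fit without replicate number as a block, with the length trend removed, and when any library of the Fmr1, Cpeb1 or double knockout was left out. RNA of Gria3 and Grik2 in this pair was not called. In the authors' deposited footprint table for this pair Gria3 (-0.26, adjusted p = 0.00271), Gria2 (-0.24, adjusted p = 0.00616) and Grik2 (-0.28, adjusted p = 0.0345) passed with DESeq2, among 1173 genes that passed there.

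Against the Fmr1 knockout, with 0 of 9 called and a background of 0.334%, Gria3 footprints had a log2 change of -0.33 ± 0.0762 in the double knockout (edgeR adjusted p = 0.0795). In the authors' deposited table for that pair Gria3 passed with -0.29 (DESeq2 adjusted p = 0.00219), among 356 genes. Against WT the double knockout had 0 of 9 called, beside 2.65% of all genes. The remaining footprint pairs also had 0 of 9 called, beside 0.0581% for the Fmr1 knockout against WT, 0.0799% for the Cpeb1 knockout against WT and 0.0581% between the single knockouts. In translational efficiency 0 of 9 were called by edgeR in each of 6 pairs. There the background was 0.0154% for the Fmr1 knockout against WT, 0% for the Cpeb1 knockout against WT, 0.00768% for the double knockout against WT, 0% for it against the Fmr1 knockout, 0.00768% for it against the Cpeb1 knockout and 0.00768% between the single knockouts. At an unadjusted p under 0.05 stood 2, 2, 0, 2, 4 and 0 of the 9 in those pairs. Over all 13027 genes, 1027, 1224, 456, 861, 1129 and 210 did so.

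Summed footprints of some marker lists also separated the double knockout from the Cpeb1 knockout. With 2 libraries of each, such separation often arises by chance, and its share over all genes was not counted. The excitatory neuron markers summed to 3204 to 3734 CPM in the double knockout and 3000.0 to 3080 in the Cpeb1 knockout. Astrocyte markers summed to 486 to 502 CPM against 545 to 592, oligodendrocyte markers to 2585 to 2930 against 3009 to 3579, and microglial markers to 17.6 to 23.8 against 32.6 to 33.4. Striatum markers summed to 474 to 569 CPM against 411 to 417, and inhibitory neuron markers to 2164 to 2199.5 against 2226 to 2256. Blood markers, at 3.01 to 3.16 against 3.29 to 5.21, and cerebellar granule cell markers, at 0.139 to 0.186 against 0.296 to 0.323, separated at low levels. The sums of oligodendrocyte precursor, endothelium, dentate gyrus and choroid plexus markers overlapped. The part of cell composition in the lower Gria3 and Grik2 footprints was not tested.

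Several auxiliary subunits of AMPA receptors were lower in single-knockout RNA. In the pooled comparison 5 of 13 auxiliary genes were called lower and 0 higher by edgeR, beside 5.09% of all genes called lower. The median log2 change of the 13 was -0.26, beside 0.03 over all genes, and 3 of them had values above 0. The 5 called lower were Shisa7 (log2 change -0.67), Cacng7 (-0.59), Gsg1l (-0.46), Cacng3 (-0.40) and Cacng8 (-0.32), with edgeR adjusted p from 0.0104 for Gsg1l to 0.0319 for Cacng8. The call was made in 14 of 15 fits for Gsg1l and in 7 of 15 for Cacng8, with the others between. Without Fmr1 knockout replicate 1 none of the 5 was called, and without Cpeb1 knockout replicate 1 Gsg1l alone was. Without the replicate block Cacng3, Cacng7 and Cacng8 were not called. Cacng3 and Cacng8 encode TARPs that bring AMPA receptors to the synapse. Cacng7 RNA, for example, was 54.0 and 70.9 CPM in WT, 70.6 and 65.5 in the double knockout, 37.8 and 57.6 in the Fmr1 knockout, and 32.1 and 50.1 in the Cpeb1 knockout, groups that overlapped. Shisa7 was 42.4 and 48.2 CPM in WT, 61.0 and 56.9 in the double knockout, 32.5 and 43.2 in the Fmr1 knockout, and 24.2 and 32.6 in the Cpeb1 knockout. Its single-knockout values overlapped with WT and lay below the double knockout. Footprints of the 13 genes had 0 calls, where 0% of all 13774 genes were called, and a median of 0.08. Cacng3 was the only pathway gene called in pooled translational efficiency, at 0.60 ± 0.110 (edgeR adjusted p = 0.0382), beside 0.184% of all genes. This call was made in 6 of 15 fits and was lost without the replicate block and on leaving out any library but double knockout replicate 2.

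Among 15 tested genes for receptor biogenesis, trafficking and clustering, 1 was called in pooled RNA, Nptxr, whose product clusters AMPA receptors together with neuronal pentraxins. Its log2 change was -0.51 ± 0.0943 (edgeR adjusted p = 0.00909), beside 7.31% of all genes called in this comparison, and the median of the list was 0.00. All 15 fits made this call. None of the 3 pre-mRNA editing genes was called: Adar, at 109 TPM in RNA, had a log2 change of 0.00 and Adarb1, the enzyme that edits the Gria2 transcript, at 97.7 TPM, one of -0.17 ± 0.0841 (edgeR adjusted p = 0.215). Nor was the delta receptor gene Grid1 (-0.17 ± 0.0814). Of the 2 kainate auxiliary genes neither was called in pooled RNA. Neto2 footprints were 23.2 and 20.4 CPM in the double knockout and 37.5 and 30.2 in the Cpeb1 knockout. This was a log2 change of -0.63 ± 0.107 (edgeR adjusted p = 0.0127), beside 2.61% of all genes called lower. Both double-knockout libraries were the lowest of the 8, and the share of all genes with that order was not counted. The call was made in 11 of 15 fits and was lost when any library of the Cpeb1 or double knockout was left out.

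Genes whose levels followed a family's summed level most closely over the 8 libraries of an assay, after replicate-number means were removed, were named by Pearson's r, as a description with no test. In RNA these were Api5 (0.99), Nifk (0.98) and Rbmxl1 (0.97) for AMPA genes, and Inf2, Zfyve28 and Trak1 (each 0.99) for kainate genes, out of 6914 genes. The same measure exceeded 0.92 and 0.97, respectively, for 1% of all genes. In footprints they were Cdh8, Ifnar1 and Pot1a for AMPA genes and Zzef1, Riok1 and Pcdha6 for kainate genes. Gria2 and Grik5 were the largest parts of the RNA sums, so a gene that follows a sum need not follow each subunit gene. Between subunit genes, r in RNA ran from 0.09 to 0.89 within the AMPA family and from -0.17 to 0.88 within the kainate family.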

How the data were processed

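Libraries were grouped by genotype and assay from their titles. Per the submitters' processing notes, the tools were cutadapt, Bowtie2, TopHat2, RSEM and DESeq2 and the build mm10, with no versions. The authors deposited RSEM expected counts, TPM and feature lengths per gene for each library. For pairs of genotypes, and in RNA for the pooled comparison, the authors deposited DESeq2 tables with a mean normalized signal, a log2 change and a p-value, and for pairs of genotypes Xtail tables of translational efficiency with a log2 change and an adjusted p-value. Feature lengths appear to be coding lengths, from multiples of 3 in 99.6% of 15716 genes with 1 transcript. Related subunits share sequence, and how RSEM divided such reads was not examined.

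Expected counts were rounded. edgeR 4.0.16 (R 4.3.3) was used with TMM scaling, filterByExpr (minimum count 10), the quasi-likelihood test and the replicate number as a block, on all 8 libraries of an assay, in 13287 genes for RNA and 13774 for footprints. Translational efficiency was the interaction of assay and genotype over 16 libraries (13027 genes passing in both assays). That model had no term for lysate that an RNA-seq and a footprint library may share, so its SE and p-values treat them as independent. Per-library ratios divided footprint by RNA-seq libraries of the same replicate number. CPM uses TMM factors. DESeq2 1.42.0, other scaling, no filter, no block, a length offset (lowess span 0.3), other sets of genotypes and leaving out each library were alternatives. The fits were run on simulated data with no replicate effect and with changes larger than the pooled and pairwise changes of the 9 genes. Those runs do not show how well changes of the size reported here are found. The 9 genes and all lists were chosen with earlier results of these data known. Named genes were all 9, pathway genes that were called (otherwise the 2 most abundant of a list), and the 3 genes most like each family among those averaging at least 200 counts. Epb41l1 and Hba-a1 of the lists were not analysed here. Some list genes are not reported here and were left out of the list sums and counts. Promoters come from RefSeq (GRCm38.p6).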

Additional observations from a re-analysis of the deposited data

Results flagged for a closer look

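Gria1 footprints of WT replicate 2, at 231 CPM, stood apart from the other 3 libraries of WT and the double knockout, which ran from 196 to 200 CPM. Gria2 footprints of Cpeb1 knockout replicate 1, at 701 CPM, stood apart from the other 3 single-knockout libraries, at 649 to 653 CPM. Each gap exceeded Dixon's critical value for 4 values. Such a gap arises by chance in about 1 group in 20, and 36 groups were examined. The effect of Fmr1 loss on Grik5 RNA differed by 1.14 on the log2 scale between mice with and without Cpeb1, by the interaction test of edgeR (adjusted p = 0.0385).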

How the results depend on the processing

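Replicate numbers were not shown to pair the libraries: the replicate 1 minus replicate 2 differences of 6 genotype pairs correlated from -0.04 to 0.29 over genes in RNA and from -0.07 to 0.33 in footprints. Without the replicate block, calls over all genes went from 971 to 380 in pooled RNA, from 772 to 207 in footprints of the double against the Cpeb1 knockout and from 24 to 0 in pooled translational efficiency, and the 2 subunit genes called in footprints of that pair became 0, as also with the length offset (0). The count in pooled RNA was 3 as reported, 1 within the fit of 4 genotypes, and 1 to 3 leaving out 1 library. Leaving out 1 library gave 0 to 2 in footprints of the double against the Cpeb1 knockout, and 0 to 1 in these 4: RNA of the Cpeb1 knockout against WT, RNA of the double against the Fmr1 and against the Cpeb1 knockout, and footprints of the double against the Fmr1 knockout. These alternatives gave 1 called gene where 0 were reported. In RNA they were DESeq2 (Cpeb1 knockout against WT, double against Fmr1 and against Cpeb1 knockout), only the genotypes compared (Fmr1 knockout against WT, double against Fmr1 knockout) and no filter (double against Cpeb1 knockout, where the length offset gave 2). In footprints of the double against the Fmr1 knockout they were no filter, DESeq2 and only the genotypes compared, and in pooled translational efficiency no filter and DESeq2. The footprint-to-RNA ratio in WT reversed with the length offset for Gria2 (0.035) and Gria3 (0.28), and for Gria3 it ran from -0.27 to 0.046 leaving out 1 WT library, above 0 without replicate 1. Calls over all genes in pooled RNA were 1457 with the length offset, 274 within the fit of 4 genotypes and down to 140 leaving out 1 library. In footprints of the double against the Cpeb1 knockout they were 1701 with only the genotypes compared, and 5 to 1987 leaving out 1 library. In pooled translational efficiency they were 261 with no filter, 163 with DESeq2, 14 with the length offset, 2 within the fit of 4 genotypes and 0 to 146 leaving out 1 library. A genotype with 1 library left is assumed to vary like the others. The cause of these differences was not tested. The highest SE of a footprint change between genotypes was 0.153 on the log2 scale, for Grik1.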

Other observations

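The length RSEM assigned to Gria4, an average over its annotated transcripts weighted by their estimated abundance, was shorter in footprints than in RNA by more than for most genes. It averaged 2026 nt in RNA (1911 to 2125 over 8 libraries) and 1680 nt in footprints (1621 to 1755), a difference of 346 nt. For genes with 1 transcript the 2 features differed by 57 nt. Among 3716 genes with several transcripts, 97.4% had a difference no larger than that of Gria4. With 1 length per gene for both assays, an alternative chosen after seeing the data, the Gria4 share of AMPA receptor footprints was 7.77% in place of 8.99%. Gria3, Grik3, Grik4 and Grik5 differed by 57 nt. Which transcripts the footprints came from was not tested.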
